A study of Sus scrofa domesticus with 4 samples.

Results

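Genes of proinflammatory and regulatory cytokines were examined in cultured porcine myometrium, the muscular wall of the uterus. The list named 10 genes (IL1A, IL1B, IL1RN, IL6, IL10, IL15, IL18, TNF, LIF and CSF2), and a probe was taken when its RefSeq accession belonged to 1 of them. This gave 14 of 43603 probes, for 9 of the 10 genes among 3029 genes named on the array. IL1RN, the natural antagonist of the IL1 receptor, was matched to no probe and was not analysed here. IL6, IL10, IL15, IL18 and TNF each had 2 probes, and IL1A, IL1B, LIF and CSF2 had 1 each.

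The tissue came from 4 gilts (Large White x Polish Landrace) aged 7 to 8 months, on days 15 to 16 of gestation. Explant slices stood for 2 h in medium and were then cultured for 24 h either with adiponectin at 10 µg/ml or with no treatment. Each of 4 Agilent 2-colour arrays compared RNA of treated with RNA of untreated explants. On arrays 1 and 3 the dye of the treated RNA was Cy5, on arrays 2 and 4 it was Cy3, and arrays 1 to 3 shared a slide. Duplicate cultures were prepared in 4 separate experiments, and the labels do not say which animals an array holds. The p-values and SEs therefore measure a spread between arrays, which may be technical in part. The fit holds a dye coefficient, so that spread is between arrays of the same dye orientation. The difference between the orientations is left out of it.

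Cytokines are secreted proteins through which immune and tissue cells signal to each other. IL1A, IL1B, IL6, IL18 and TNF are classed as proinflammatory, and IL10 restrains inflammation, mainly by acting on macrophages. IL15 sustains natural killer and memory T cells, LIF belongs to the IL6 family and is known for its part in embryo implantation, and CSF2 is a growth factor of granulocytes and macrophages. In the uterus these genes are studied for implantation in early pregnancy and for the activation of the myometrium at labour. Adiponectin, a hormone of fat tissue, is known to lower TNF and raise IL10 in cultured macrophages.

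Adiponectin gave no cytokine gene a change that passed the test. The ratios of some of these genes differed widely between arrays. IL1B was 3.87-fold lower with adiponectin on array 1 and 8.80-fold higher on array 3. IL10 was within 1.24-fold of the control on arrays 1, 2 and 4 and higher with adiponectin on array 3, where its untreated signal was not well above background. Of the 14 probes, 11 were tested, for 8 genes. To be tested, a probe had to be well above background in 1 of the conditions on no fewer than 3 arrays. LIF was too dim to be tested. With limma, at a threshold of 0.05 on the p-value adjusted over all probes, 0 of the 8 genes passed, and 0% of the 22129 probes tested passed. At an unadjusted p under 0.05 limma counted 1 cytokine gene, IL15, which was lower, and 5.71% of all tested probes, 3.79% higher and 1.92% lower.

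**Figure D1:**
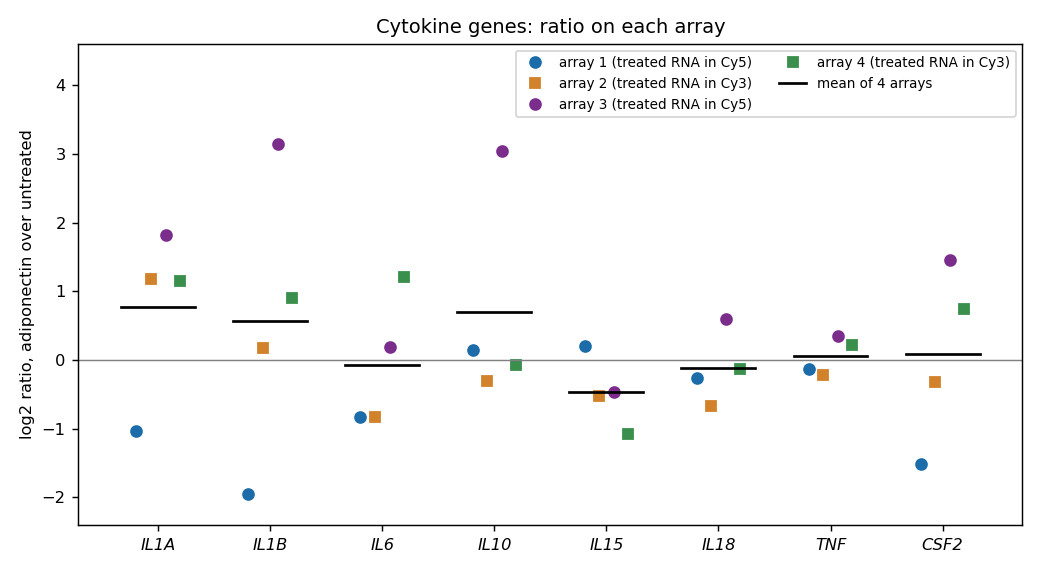
Each point is the log2 ratio of adiponectin-treated over untreated RNA on 1 array for the brightest tested probe of a gene (circles, treated RNA in Cy5; squares, treated RNA in Cy3), and the black bar is the mean of the 4 arrays. IL1B runs from -1.95 on array 1 to 3.14 on array 3, IL10 is at 3.04 on array 3, against an untreated signal that was not well above background there, and TNF stays between -0.22 and 0.35.

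Both agonists of the IL1 receptor differed in sign between arrays. IL1B, which is made as a precursor and cleaved by caspase 1 before secretion, had log2 ratios of -1.95, 0.17, 3.14 and 0.91 on arrays 1 to 4. Array 1 was low and array 3 high, with arrays 2 and 4 between them. Its log2 change was 0.57 ± 0.77 (moderated SE, n = 4 arrays), with a 95% interval from -1.35 to 2.48 (limma adjusted p = 0.926). Without array 3 the change was -0.71 and without array 1 it was 1.84, so each of these arrays decided its sign or size.

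The signals showed that the divergence of IL1B lay in both conditions. Its processed signal in untreated RNA was 3241, 772, 390 and 515 on arrays 1 to 4, and in treated RNA it was 838, 867, 3436 and 965. Arrays 1 and 3 carried the same dyes and can be set side by side after each signal is taken relative to the median of the tested probes in its channel. On that log2 scale the untreated level was -2.88 on array 3 relative to array 1, and the treated level was 2.21 higher there. The high untreated signal was on array 1 and the high treated signal on array 3.

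IL1A, whose precursor is already active and is released from damaged cells, had log2 ratios of -1.03, 1.18, 1.82 and 1.15. It was below 0 on array 1 and above 0 on the other 3 arrays. Its log2 change was 0.78 ± 0.44 (n = 4 arrays), a 1.72-fold higher signal, with an interval from -0.31 to 1.87 (limma adjusted p = 0.860). Its signals in untreated RNA were 327, 237, 133 and 103, and in treated RNA 160, 537, 469 and 229. The change was 1.49 without array 1 and 0.07 without array 3.

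The reference table also holds a second pig gene, IL1B2, which lists IL1B among its older names and is known as a form made by the pig conceptus. It is no member of the list, but its 3 probes bear on how the IL1B signal is read. Its tested probe stood at -0.51, -0.05, 0.76 and 1.01, again lowest on array 1. A dimmer probe, well above background on arrays 1 and 2 in untreated RNA and on arrays 1 and 3 in treated RNA, stood at -2.19, -0.48, 3.57 and -0.21. The third probe was not well above background on any array in either channel, and its ratio was listed at 0 on arrays 1, 3 and 4. Whether the probes of IL1B and IL1B2 each bind only their own transcript was not tested, since no probe sequences were used here.

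IL18, the other cytokine that caspase 1 activates, had ratios nearer to 0. Its brighter probe stood at -0.26, -0.66, 0.60 and -0.13, below 0 on 3 arrays and above 0 on array 3. Limma put its log2 change at -0.11 ± 0.20 (95% interval -0.60 to 0.38, limma adjusted p = 0.943, n = 4 arrays). The second probe, at -0.39, -0.54, 0.41 and -0.09, kept the same sign on all 4 arrays and differed by at most 0.19. The untreated signals of the brighter probe were 1777, 404, 393 and 745, and the treated ones 1484, 255, 596 and 681. Array 1 was high in both conditions. The change was 0.10 without array 1 and 0.02 without array 2.

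**Figure D2:**
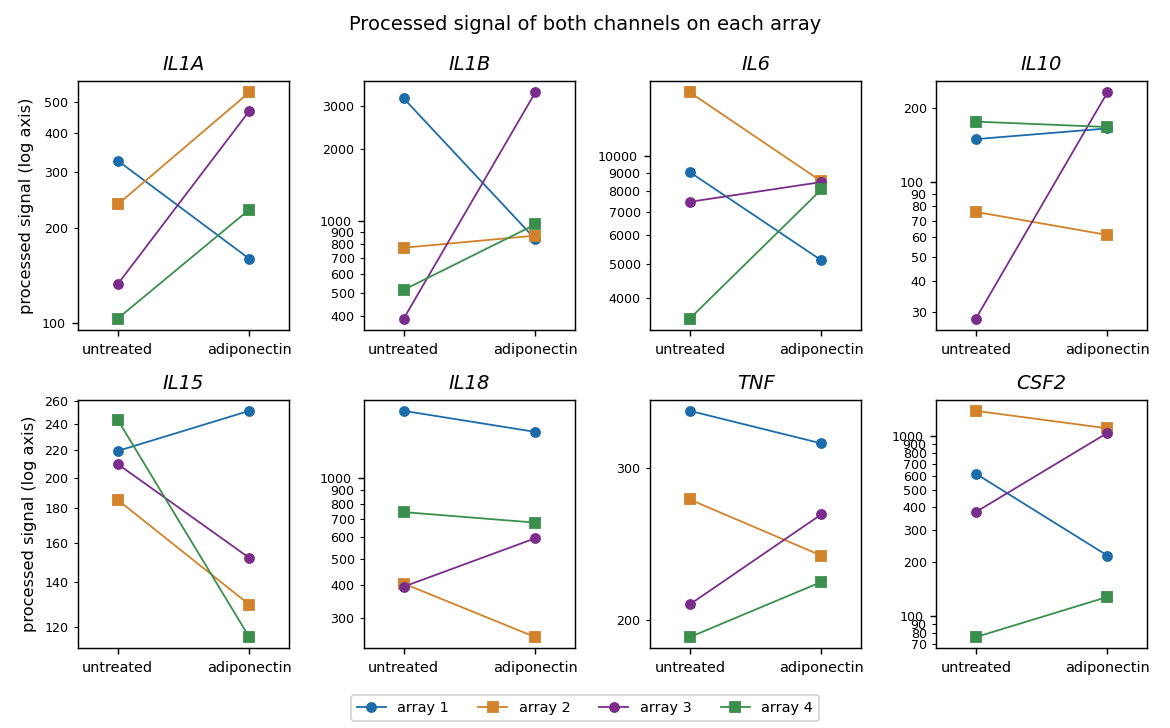
Each line joins the processed signal (log axis, its own scale for each gene) of untreated and adiponectin-treated RNA on 1 array for the brightest tested probe of a gene (circles, treated RNA in Cy5; squares, treated RNA in Cy3). The lines of IL1A, IL1B, IL6, IL18, TNF and CSF2 slope down on array 1 and up on array 3, and those of IL15 slope down on 3 of 4 arrays.

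IL6, a cytokine that smooth muscle and stromal cells also make, split the arrays in pairs. The log2 ratios of its brighter probe were -0.82 (array 1) and -0.83 (array 2), against 0.18 (array 3) and 1.21 (array 4). The second probe agreed in sign on all 4 arrays, at -0.65, -0.84, 0.19 and 0.76. For the brighter probe the fitted log2 change was -0.07 ± 0.36 (95% interval -0.96 to 0.83, limma adjusted p = 0.981, n = 4 arrays). The mean near 0 thus came from opposite values and not from 4 values near 0.

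The treated signals of IL6 spanned less than the untreated ones. They were 5107, 8513, 8472 and 8075 on arrays 1 to 4, against 9033, 15136, 7455 and 3502 in untreated RNA. Between arrays 2 and 4, which shared dye orientation and differed in slide, the untreated level relative to the channel median was -2.32 on array 4 relative to array 2. The treated level there was -0.28. The change of IL6 was 0.19 without array 1 and 0.44 without array 2.

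TNF, the early cytokine of activated macrophages, had narrow ratios. Its bright probe stood at -0.13, -0.22, 0.35 and 0.21, so arrays 1 and 2 were below 0 and arrays 3 and 4 above. The fitted log2 change was 0.05 ± 0.16 (95% interval -0.34 to 0.45, limma adjusted p = 0.969, n = 4 arrays). The signals were 349, 276, 208 and 191 in untreated RNA and 320, 237, 265 and 221 in treated RNA. The change was -0.064 without array 3 and -0.053 without array 4. The other probe of TNF was not well above background on any array in either channel, and its ratio was listed at 0 on array 4.

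LIF was near background throughout. Its probe was well above background on array 2 in untreated RNA and on array 3 in treated RNA, and on no other array in either channel. The signals were 8.44, 71.5, 13.2 and 12.5 in untreated RNA and 22.2, 43.6, 33.8 and 9.52 in treated RNA. The ratios of 1.40, -0.71, 1.36 and -0.39 followed the dye orientation, above 0 where treated RNA was in Cy5 and below 0 where it was in Cy3. With no filter on dim probes, limma gave LIF a log2 change of 0.41 ± 0.07, with an unadjusted p of 0.0172 and an adjusted p of 0.562 (n = 4 arrays). In that fit the dye coefficient takes up the difference between the orientations, so the SE leaves it out.

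IL10, the regulatory cytokine of the list, stood apart on array 3. Its bright probe had log2 ratios of 0.14, -0.31, 3.04 and -0.07. On array 3 its untreated signal was 28.1 and not well above background, which leaves the size of that ratio uncertain, against 149, 75.9 and 176 on arrays 1, 2 and 4. The treated signals were 165, 61.2, 231 and 167, and array 3 was the highest among them. The fitted log2 change was 0.70 ± 0.45 (95% interval -0.41 to 1.81, limma adjusted p = 0.867, n = 4 arrays), and it was -0.024 without array 3. The dimmer probe, well above background in treated RNA on arrays 1 and 3 and in untreated RNA on none, stood at -0.79, 0.81, 1.62 and -0.33. The probes agreed in sign on 2 of 4 arrays.

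IL15 had ratios below 0 on 3 of 4 arrays. Its brighter probe stood at 0.20, -0.52, -0.46 and -1.07, with array 1 above 0 and array 4 the lowest. Signals in untreated RNA were 219, 185, 210 and 244, a narrow range, and in treated RNA they were 251, 130, 152 and 116. Limma gave a log2 change of -0.46 ± 0.18, which is 0.725 times the control signal (95% interval -0.91 to -0.01). The unadjusted p was 0.0455 and the adjusted p 0.856 (limma, n = 4 arrays). The second probe, at 0.26, -0.40, -0.58 and -0.02, gave -0.18 ± 0.19. The probes differed by 1.05 on array 4 and had the same sign on every array. The change of the brighter probe ranged from -0.63 to -0.30 when 1 array was left out, and it was -0.28 after normexp correction and loess.

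CSF2 had a lower ratio on array 1 than on array 3, as did every other tested cytokine but IL15. Its probe stood at -1.51, -0.32, 1.46 and 0.74, low on array 1 and high on array 3. Fitted over the 4 arrays, its log2 change was 0.09 ± 0.48 (95% interval -1.11 to 1.29, limma adjusted p = 0.980, n = 4 arrays). The change was -0.65 without array 3, -0.17 without array 4 and 0.83 without array 1. Signals in untreated RNA were 616, 1376, 377 and 76.1, and in treated RNA 216, 1101, 1038 and 127. On array 4 both conditions were low: relative to the channel median, the untreated level was -4.39 and the treated level -3.32 on array 4 relative to array 2, on the log2 scale.

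**Figure D3:**
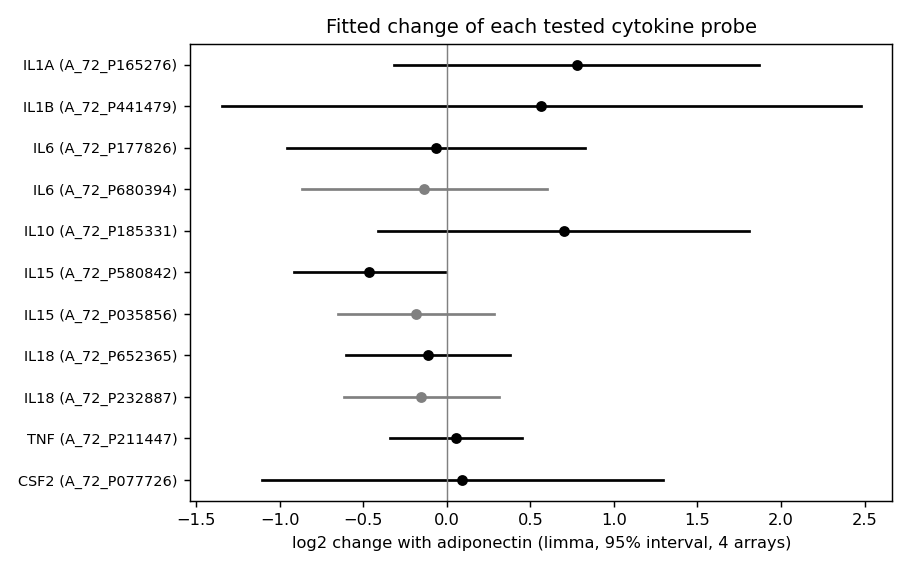
Points are log2 changes with adiponectin from limma over 4 arrays and lines are 95% intervals, with the brightest probe of a gene in black and any other tested probe in grey. The interval of IL1B spans -1.35 to 2.48, that of TNF -0.34 to 0.45, and that of the brighter IL15 probe ends at -0.01.

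As a group, the cytokines were spread more widely than centred away from 0. The 8 tested genes had a median log2 change of 0.07, with 5 above 0 and 3 below, against a median of -0.02 over all 2134 tested named genes, 45.6% of them above 0. None of the 8 had the same sign on all 4 arrays, and 12.6% of all tested probes had, 6.36% above 0 and 6.22% below. A count of 0 among 8 is near that share. The SD of the 4 ratios had a median of 1.11 over the cytokines and of 0.32 over all tested named genes. It exceeded 1 for 4 of 8 cytokines (IL1A, IL1B, IL10 and CSF2) and for 4.92% of all tested named genes. That of IL10 rests on array 3, where its untreated signal was not well above background. Wide ratios were not particular to the cytokines. Among cell type markers, C1QC ran from -1.07 to 3.18, EPCAM from -1.21 to 2.19 and ACTA2 from -0.91 to 1.58. EPCAM was below 0 on arrays 1 and 3 and above 0 on arrays 2 and 4, so its range holds the difference between dye orientations. Other markers were narrow, such as CD14, from -0.28 to 0.46. The SD of IL1B, 2.10, was above that of 99.8% of the tested probes, and that of TNF, 0.27, above 34.7% of them.

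Array by array, the median log2 ratio of the cytokines was -0.54, -0.32, 1.03 and 0.48, where all tested named genes had medians of -0.03, -0.10, 0.05 and -0.02. On array 1, 6 of 8 were below 0, and on array 3, 7 of 8 were above 0. The exceptions on array 1 were IL10 and IL15, and on array 3 IL15. Arrays 1 and 3 had opposite signs for 7 of 8 cytokines and for 53.3% of all tested named genes. Arrays 2 and 4 had opposite signs for 3 of 8 cytokines, IL6, TNF and CSF2, and for 38.1% of all tested named genes. Without array 3 the median change over the cytokines was -0.31, without array 1 it was 0.51 and without array 4 it was -0.11.

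Receptors and signalling partners were taken from lists of known pathway genes, and none passed. Of the IL1 family receptors and processing genes, 6 of 23 had a named probe and 4 were tested, with 0 higher and 0 lower by limma. CASP1, the protease that activates IL1B and IL18, had a log2 change of 0.35 ± 0.15 and was well above background on 1 array in untreated and 3 in treated RNA. Its array values were 1.13, -0.10, 0.97 and -0.60, above 0 where treated RNA was in Cy5 and below 0 where it was in Cy3. The dye coefficient takes up that difference, so the SE leaves it out. TRAF6, a ubiquitin ligase, and IRAK4, a kinase, both below the IL1 receptor, had log2 changes of 0.26 and 0.14. MYD88, the adaptor of the IL1 receptor, had a log2 change of -0.18 ± 0.38, and its ratios ran from -1.71 (array 2) to 1.93 (array 3). It was dim, well above background on 3 arrays in untreated and 2 in treated RNA, with an untreated signal of 13.4 on array 3.

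In the IL6 family, 5 of 14 genes were tested and 0 passed in either direction. All 5 had a log2 change above 0, with a median of 0.14. IL6ST, the signal-transducing chain shared by IL6 and LIF, was at 0.41 ± 0.17, with array values of 0.55, 0.44, -0.13 and 0.80. Its array 3 value was thus its lowest, unlike that of the cytokines IL1A, IL1B and IL10. JAK1, the kinase bound to that chain, was at 0.21, the receptor IL6R at 0.14 and the transcription factor STAT3 at 0.11.

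Of the TNF receptors and NF-kappaB genes, 12 of 21 were tested, 6 above 0 and 6 below, and 0 passed in either direction. TNFAIP3, an inhibitor of NF-kappaB, was at 0.34 ± 0.14, with -0.19 and -0.37 on arrays 1 and 3 and 0.77 and 1.15 on arrays 2 and 4. ADAM17, the protease that sheds TNF from the cell surface, was at 0.35 ± 0.16, and its 4 array values lay between 0.03 and 0.65. The receptor TNFRSF1B was at 0.47 ± 0.22 and the kinase CHUK at -0.25 ± 0.15.

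Of the IL10, IL15 and CSF2 receptor and signalling genes, 6 of 13 were tested and 0 passed in either direction. STAT5B, which acts below IL15 and CSF2 receptors, was at -0.39 ± 0.34, with -1.94 on array 4 and values between 0.05 and 0.20 on the other arrays. It was well above background on 3 arrays in each condition, with an untreated signal of 42.4 on array 4. TYK2, a kinase of the IL10 receptor, was at 0.11 and STAT6 at -0.17. Of the other interleukins and colony-stimulating factors, 15 of 23 had a named probe and 4 were tested. The 11 that were too dim included IL2, IL4, IL12A, IL12B, IL17A and IFNG. CSF3, the granulocyte growth factor, was at 0.23 ± 0.34, with -0.68, -0.34, 0.71 and 1.24. It was below 0 on arrays 1 and 2 and above 0 on arrays 3 and 4, as IL6, TNF and CSF2 were. IL27 was at -0.32, IL16 and TGFB1 both at -0.03.

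Genes with the most similar values on the 4 arrays were sought among the other tested named genes, by the root mean square difference of the log2 ratios. For IL1B the nearest were the chemokine genes CCL8 (difference 0.585), CCL3L1 (0.709) and CCL4 (0.923). CCL8 stood at -1.04, -0.32, 2.60 and 0.79. CCL4 (0.324) and CCL3L1 (0.389) were also near CSF2, with the cardiac actin gene ACTC1 (0.345). CCL4 stood at -1.65, -0.33, 1.57 and 0.12. These genes were picked for their likeness on the same 4 ratios, so the shared pattern is a description and no separate result.

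The nearest to IL10 were TNFAIP8L2 (0.324), the complement gene C1QB (0.501) and the mannose receptor gene MRC1 (0.513), the latter a pair of macrophage markers. For IL6 they were CYP1A1 (0.261), MALL (0.350) and HDDC3 (0.361), and for IL1A IGFBP4 (0.685), TXNIP (0.767) and SPARCL1 (0.781). For IL15 they were TICAM2 (0.197), GAL3ST1 (0.198) and RHBG (0.223). For IL18 they were MRPS18B (0.122), GNL1 (0.125) and PPP1R10 (0.126), and for TNF PPIA (0.0494), SPATA5L1 (0.0617) and PLIN3 (0.0713). With 4 arrays per gene, genes with values near 0 have close neighbours more easily than genes with wide values.

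**Figure D4:**
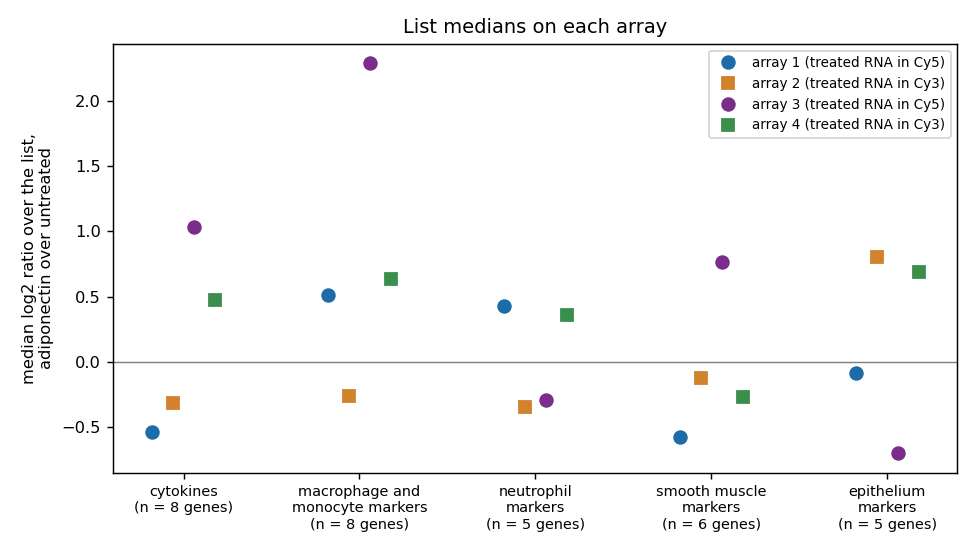
Points are the median log2 ratio of adiponectin-treated over untreated RNA over the tested genes of a list on 1 array (circles, treated RNA in Cy5; squares, treated RNA in Cy3). Macrophage and monocyte markers reach 2.29 on array 3, where the cytokines are at 1.03 and the epithelium markers at -0.70.

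Markers of other cell types also differed between arrays. In RNA of whole explants, fewer cells of a type and less RNA per cell cannot be told apart. Of 14 macrophage and monocyte markers, 8 were tested, all well above background on 4 of 4 arrays in both conditions, with median log2 ratios of 0.51, -0.26, 2.29 and 0.63 on arrays 1 to 4. All 8 had a log2 change above 0, with a median of 0.77 against 0.07 for the cytokines, and 0 passed the adjusted threshold. At an unadjusted p under 0.05 limma counted 3 of them, where 5.71% of all tested probes were counted. Named here after their values were seen, they were VSIG4 at 1.20 ± 0.31, CD163 at 1.09 ± 0.34 and AIF1 at 0.65 ± 0.26. Among the markers of other cell types it counted IL7R (2.02 ± 0.37, lymphocyte) and ASPN (0.98 ± 0.22, stroma) as higher. PGLYRP1 (-0.54 ± 0.18, neutrophil) and ENG (-0.45 ± 0.16, endothelium) were counted as lower. IL7R was well above background on 0 arrays in untreated RNA and on 3 in treated RNA. ASPN was so on 2 arrays in untreated and 3 in treated RNA. Its highest ratio, 2.05 on array 2, stood against an untreated signal of 7.41. The summed signal of the 8 macrophage and monocyte markers ran from 1745 to 5084 in untreated RNA and from 1860 to 8623 in treated RNA. The lowest untreated sum was on array 3, where the untreated signal of IL10 was also lowest. So were the untreated signal of IL1B and the untreated sum of the smooth muscle markers. The untreated sums of the neutrophil and epithelium markers were lowest on array 1. On array 1, 7 of the 8 macrophage and monocyte markers were above 0 while IL1A, IL1B and CSF2 were below. The exception was CD14, which stood at -0.28, -0.23, 0.07 and 0.46. The part of macrophage content in the cytokine values was not tested.

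Of 9 neutrophil markers, 5 were tested, with medians of 0.42, -0.34, -0.29 and 0.36, summed signals from 1264 to 4211 in untreated and from 1362 to 4940 in treated RNA, and PGLYRP1 well above background on 3 of 4 arrays. Of 19 lymphocyte markers, 5 were tested, and CD2, CD3D, CD3E, CD4, CD8A and MS4A1 were among the 10 that were too dim. The tested lymphocyte markers had medians of 0.33, -0.05, 0.04 and -0.11, with sums from 460.05 to 516 in untreated and from 412 to 659 in treated RNA. Epithelium markers (5 of 9 tested) had medians of -0.09, 0.81, -0.70 and 0.69, with sums from 2968 to 6713 in untreated and from 3676 to 7836 in treated RNA. Endothelium markers (5 of 10 tested) had medians from -0.29 on array 2 to 0.47 on array 4, with sums from 6985 to 9694 in untreated and from 7427 to 9533 in treated RNA. Stroma markers (6 of 9 tested) had medians of 0.49, -0.20, -0.20 and -0.03, with sums from 46963 to 65292 and from 51179 to 58605. Of 11 trophoblast and conceptus genes, HSD3B1 and CYP19A1 were tested, both of which other tissues also make, and IFNG, CYP17A1, GATA3 and CDX2 were too dim. The sums of HSD3B1 and CYP19A1 ran from 784 to 1170 in untreated and from 744 to 1277 in treated RNA. The part of these cell types in the cytokine values was not tested.

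The labelled tissue was checked against smooth muscle genes. ACTA2, CNN1, DES, MYL9, SMTN and MYLK, 6 of 12 listed, were tested and well above background on all 4 arrays in both conditions. Their median log2 ratios were -0.58, -0.12, 0.77 and -0.27, and ACTA2, the smooth muscle actin gene, stood at -0.91, -0.01, 1.58 and -0.25. All 6 were highest on array 3, and 4 of them were lowest on array 1, the exceptions being MYL9, lowest on array 4, and CNN1, lowest on array 2. Their summed signal ran from 216990 to 508030 in untreated and from 275410 to 430680 in treated RNA. Over all tested probes, Pearson's r for pairs of arrays ranged from -0.31 for arrays 2 and 3, which differ in dye orientation, to 0.25 for arrays 2 and 4. Arrays 1 and 3, which share it, had -0.05. The other pairs that differ in it had -0.01 (arrays 1 and 2), 0.05 (arrays 1 and 4) and 0.05 (arrays 3 and 4). Each r is a correlation across probes that share an array and a dye, and not across replicates.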

How the data were processed

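RNA of adiponectin-treated and untreated porcine myometrial explants was compared on 4 Agilent 2-colour arrays. The deposited scanner files were made with Agilent Feature Extraction 10.7.3.1, per the file headers. They hold spot and local background intensity, processed intensity after background subtraction and dye normalisation, and a log10 ratio of Cy5 over Cy3 of the processed signals, per the file headers. From 18.1% to 28.9% of an array's spots had a log10 ratio of exactly 0. The labelling protocol text names only treated RNA in Cy5, so the dye fields of the labels set each direction. The deposited series table holds log2 ratios made by the authors, with scale, centring and direction not stated. Against the turned scanner ratios of probes well above background its slope was 1.00 on each array, with column medians of -0.10, 0.13, -0.14 and 0.16. The table thus gives treated over untreated RNA on the same log2 scale with no further centring. How its values of dim probes were made is unknown.

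The log10 ratio was divided by log10(2), turned on arrays 2 and 4, and averaged over the spots of a probe without outlier-marked spots. Probes that were well above background in 1 condition on no fewer than 3 arrays and had a value on all 4 arrays were tested (22129 of 43603). Well above background were between 46.1% and 51.0% of spots in Cy3 and between 54.9% and 63.1% in Cy5. Ratios were fitted with limma 3.58.1 in R 4.3.3 with a treatment and a dye coefficient, two-sided, with Benjamini-Hochberg adjustment over all tested probes. Intervals are 95% intervals of the moderated coefficient, and its SE leaves out what the dye coefficient takes up, whereas single-array ratios still hold it. The number of arrays limits the precision. The fit was tested on simulated data with independent noise, typically of smaller spread than the cytokine ratios. That test does not show whether changes of the cytokines could be detected here. Accessions without versions were matched to RefSeq symbols of assembly Sscrofa11.1, which named 6700 of 43603 probes, and the brightest tested probe stood for a gene.

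The rule for named genes took all cytokine genes, the 4 genes of each partner list with the smallest p and the 3 genes nearest to each cytokine. Some genes that it takes are not reported here. The members and lists were chosen with earlier results of these data known. Alternatives were normexp (offset 50) with loess, the series table, median centring, other filters, marked spots kept, no dye coefficient, slide as a coefficient, the mean over probes, and each array left out. The other probe of a gene was added after seeing the data.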

Additional observations from a re-analysis of the deposited data

Results flagged for a closer look

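IL10 had 1 array far from the other 3. Its brighter probe, A_72_P185331, had a log2 ratio of 3.04 on array 3, while the other arrays lay from -0.31 to 0.14. The gap was 0.865 of the whole range, above Dixon's 95% critical value for 4 values. Of 14 sets of 4 array values, 1 was of this kind, where chance gives about 1 in 20, or 0.7 here. Its untreated signal on array 3 was not well above background.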

How the results depend on the processing

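The fit with slide as a coefficient is the fit without array 4, the only array of its slide, so the 12 alternative settings hold 11 separate fits. Over the 12, limma called 0 probes in 11 and 12 probes without array 3, with the smallest adjusted p between 0.0198 and 0.974, and leaving out 1 array gave from 0 to 12 probes. No cytokine was among those 12, and the smallest adjusted p of a cytokine gene there was 0.409, for IL1B. The log2 change kept its sign under every alternative for IL1A (0.07 to 1.49) and IL15 (-0.63 to -0.18). The series table, the other filters, marked spots kept and no dye coefficient left the log2 change of a given probe as it was. Median centring barely moved it, so a kept sign under these settings is no support. For IL1A and IL15 the sign could turn with normexp and loess, with an array left out, or for IL15 with its other probe. IL18 turned to 0.021 with normexp and loess, and without array 4, or equally with slide as a coefficient, TNF turned to -0.053 and CSF2 to -0.17. Leaving out 1 array gave ranges of -0.71 to 1.84 for IL1B, -0.57 to 0.44 for IL6, -0.024 to 1.42 for IL10, -0.33 to 0.10 for IL18, -0.064 to 0.17 for TNF and -0.65 to 0.83 for CSF2. With 3 arrays, the single array of a dye orientation had the weight of the other 2. The causes were not tested. The median over the cytokines ranged from -0.31 to 0.51. No setting brought a cytokine past the threshold. TNF, LIF and IL10 each had a probe too dim to test, which limits what their values show.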
